A study of Mus musculus with 6 samples.

Results

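Interferon-inducible GTPases were examined in leukemia cells taken from the bone marrow of mice with and without cytarabine. The 10 genes described here were chosen by symbol from the 23284 genes listed in each file. They are 6 immunity-related GTPases (IRG), namely Iigp1, Tgtp1, Tgtp2, Irgm1, Irgm2 and Igtp, and 4 guanylate-binding proteins (GBP), namely Gbp2, Gbp3, Gbp6 and Gbp7. They were chosen with their FPKM in these 6 libraries already known, so their differences between the groups are given as a description and without a test. The cells were C1498, a murine acute myeloid leukemia (AML) line, transduced with GFP and expanded from a single clone, and injected intravenously into C57BL/6 J mice, for which the study's methods give young adult females unless stated otherwise. On day 21 after injection, GFP+ CD49b+ cells were sorted from the marrow of 3 mice given cytarabine, a nucleoside analog that blocks DNA synthesis, and of 3 control mice, which the sample records call both PBS-treated and untreated. Libraries, 1 per mouse, are called cytarabine 1, 2 and 3 and control 1, 2 and 3. The methods state the cytarabine schedule for imaging and survival, and not for the mice used for RNA-Seq in particular.

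IRG and GBP proteins are large GTPases of cell-autonomous immunity. Interferon gamma, and for many of them type I interferon, induces their genes through JAK kinases, STAT proteins and IRF1. Effector IRGs such as Iigp1 (Irga6) and the Tgtp proteins (Irgb6) assemble on the vacuoles of intracellular pathogens, the regulatory IRGs Irgm1, Irgm2 and Igtp (Irgm3) keep the effectors inactive on the cell's own membranes, and GBPs coat vacuoles and bacteria and promote inflammasome activation. The genes are present in many cell types at low levels and rise strongly under interferon.

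Of the members, 9 lie in 4 clusters (GRCm38, GENCODE M21). Irgm1, Tgtp1 and Tgtp2 are on the minus strand of chromosome 11, at 48861968 to 48871683, 48985327 to 48994172 and 49057194 to 49064206. Igtp and Irgm2 are on the plus strand of the same chromosome, at 58199556 to 58207591 and 58199618 to 58222782, so that the annotated span of Irgm2 covers most of Igtp. Gbp7, Gbp3 and Gbp2 follow each other on the plus strand of chromosome 3, at 142530342 to 142550149, 142560026 to 142573209 and 142620602 to 142638008. Gbp6 is on the minus strand of chromosome 5, at 105270702 to 105293698. The coding sequences of Tgtp1 and Tgtp2 are 1245 bases each without the stop codon and differ at 4 positions, an identity of 99.7%. Reads of that pair can be divided between the genes by Cufflinks, so each value of Tgtp1 and Tgtp2 is uncertain. The next closest pair was Gbp3 and Gbp7 at 77.3% identity, and Igtp and Irgm2 were 69.7% identical.

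The promoters are shown because they carry the elements through which interferon acts on genes of this kind. RefSeq windows (GRCm38.p6) from 250 bases before to 50 bases after the gene start were held for 8 of the 10 members. Each of these 8 had at least 1 match of the interferon response element core, GAAA followed after any 2 bases by GAAA (on the other strand, TTTC followed after any 2 bases by TTTC), which 3.44% of all 32851 windows hold. The STAT-type site TTCNNNGAA, which reads the same on both strands, was found in 5 of the 8 (Igtp, Irgm2, Tgtp1, Tgtp2 and Gbp7) and in 8.3% of all windows. A window with both motifs was found for those 5 members, against 0.454% of all windows. Related sets, used further below, also held the motifs. The core was in 45.5% of 11 windows of other family genes, 56.2% of 16 of type I interferon targets and 13.3% of 15 of interferon gamma targets. Both motifs were in 27.3%, 18.8% and 0% of them. The 110 bases directly upstream of the RefSeq start follow, 5′ to 3′ on the strand of the gene, with matches of either motif in capitals.
Igtp: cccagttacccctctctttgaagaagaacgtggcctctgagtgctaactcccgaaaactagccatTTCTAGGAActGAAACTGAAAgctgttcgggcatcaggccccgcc
Irgm2: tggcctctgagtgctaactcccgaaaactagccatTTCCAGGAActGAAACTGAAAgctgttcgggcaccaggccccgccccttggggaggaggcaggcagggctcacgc
Tgtp1: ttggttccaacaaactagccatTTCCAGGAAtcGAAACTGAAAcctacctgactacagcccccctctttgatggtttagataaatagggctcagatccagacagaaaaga
Tgtp2: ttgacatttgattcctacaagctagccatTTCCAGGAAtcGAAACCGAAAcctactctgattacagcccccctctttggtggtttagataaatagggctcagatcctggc
Irgm1: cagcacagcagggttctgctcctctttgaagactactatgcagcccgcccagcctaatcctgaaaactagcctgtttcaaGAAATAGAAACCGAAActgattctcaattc
Gbp2: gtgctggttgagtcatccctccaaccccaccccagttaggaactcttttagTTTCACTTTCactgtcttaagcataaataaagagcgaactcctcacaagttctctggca
Gbp3: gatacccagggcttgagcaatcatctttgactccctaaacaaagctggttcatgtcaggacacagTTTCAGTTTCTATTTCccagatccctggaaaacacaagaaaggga
Gbp7: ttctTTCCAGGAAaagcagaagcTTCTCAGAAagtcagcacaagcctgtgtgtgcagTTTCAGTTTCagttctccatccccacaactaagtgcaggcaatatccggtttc
In Igtp, Irgm2, Tgtp1 and Tgtp2 the STAT-type site was followed after 2 bases by the interferon response element core, and both lay within 88 bases of the start. Irgm1 and Gbp3 each had 2 overlapping matches of the core, Gbp2 had 1, and Gbp7 had 1 core with 2 STAT-type sites 25 and 44 bases before it. The stretches are chr11:58199446-58199555 and chr11:58214867-58214976 on the plus strand, chr11:48992247-48992356, chr11:49064213-49064322 and chr11:48871421-48871530 on the minus strand, and chr3:142620553-142620662, chr3:142559934-142560043 and chr3:142530226-142530335 on the plus strand. A second RefSeq window of Gbp3, at a start further downstream, held neither motif. The RefSeq starts of Irgm1, Irgm2, Tgtp1, Gbp2 and Gbp3 used here lie inside the GENCODE spans given above. The matches describe letters and do not show binding in these cells.

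**Figure D1:**
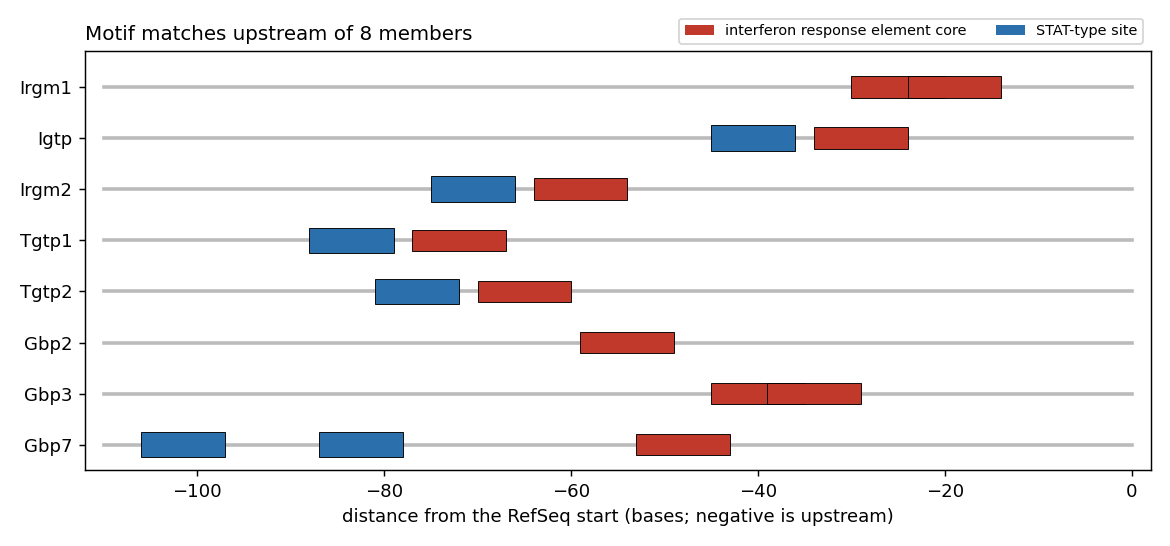
Motif matches in the 110 bases upstream of the RefSeq start of 8 members; the x axis is the distance from the start in bases, red boxes are interferon response element cores and blue boxes STAT-type sites. The core lies within 77 bases of the start in all 8, and in 4 IRG genes a STAT-type site sits 2 bases before it.

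The authors deposited FPKM values from Cufflinks (fragments scaled by transcript length and by the number of mapped fragments), which are not counts. The depth inferred from the steps between low values lay between 11500000 and 18800000 reads per library, so that 3 reads on 2000 bases of transcript amount to 0.08 to 0.13 FPKM. Transcripts of colon epithelium were high in cytarabine 2, cytarabine 3 and control 1 (summed over 14 markers, 4608, 4924 and 2180 FPKM) and lower in cytarabine 1, control 2 and control 3 (348, 25.3 and 26.7 FPKM), a division that crosses the groups. The T cell genes Cd3e and Cd3g were at 129.6 and 449.4 FPKM or more in every library. Itga2, which encodes the sorted antigen CD49b, was at 7.79 to 8.12 FPKM with cytarabine and 10.6 to 13.3 FPKM in controls. In sorted bulk RNA, a change in the share of a cell type and a change in RNA per cell cannot be told apart. Differences below are on the log2(FPKM + 1) scale, which understates the change of low genes, and 11703 genes were fitted, those whose mean over the libraries was 1 FPKM or more. All 10 members passed this filter.

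All 10 members had a higher mean with cytarabine, with a median log2 difference of 1.06 and a range from 0.48 for Gbp7 to 1.88 for Iigp1, where the median over all fitted genes was -0.002. In 7 of the 10 the groups did not overlap, all treated libraries being higher, and in Tgtp1, Tgtp2 and Gbp7 the groups overlapped. The same separation, in the same direction, was found for 10.9% of all fitted genes. Because the members were chosen on this contrast, nothing is read from that count. The size of the difference was not shared evenly by the mice. In all 10 members cytarabine 1 held the highest value, cytarabine 2 the next and cytarabine 3 the lowest of the treated libraries, an arrangement found in 23.7% of all fitted genes.

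**Figure D2:**
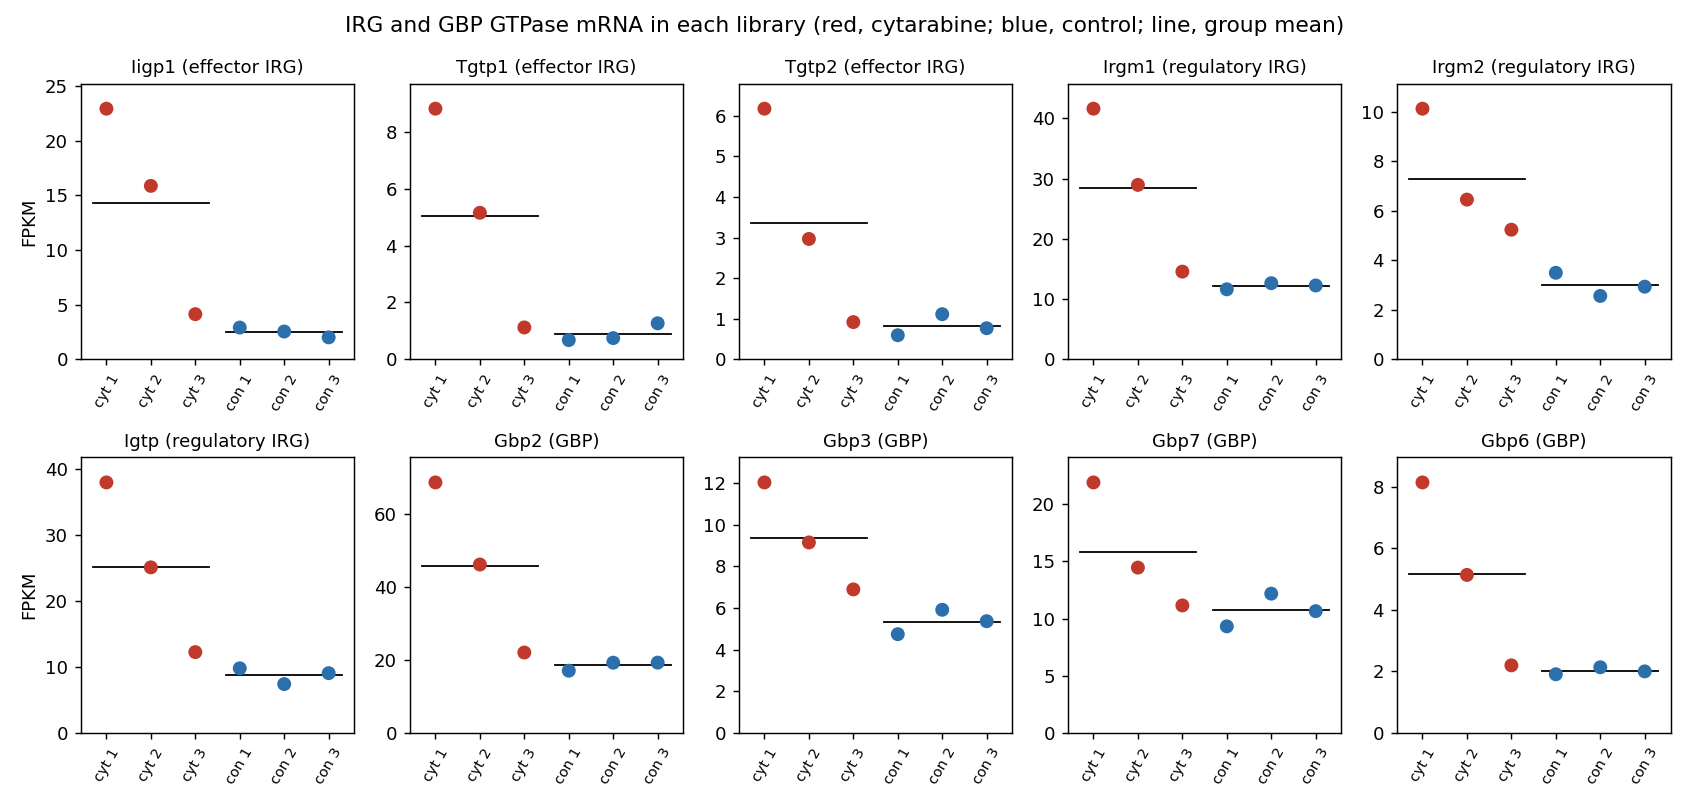
FPKM (y axis, linear from 0) of the 10 members in each of the 6 libraries (x axis; cyt, cytarabine; con, control); points are libraries and lines group means. Cytarabine 1 is highest and cytarabine 2 second in all 10 panels, while cytarabine 3 is below the highest control for Tgtp1, Tgtp2 and Gbp7 and farthest above it, by a factor of 1.50, for Irgm2.

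Among the effector IRGs, Iigp1, whose protein Irga6 oligomerises on parasite vacuoles and whose gene lies on the plus strand of chromosome 18 at 60376027 to 60392634, reached 22.9 FPKM in cytarabine 1, 15.9 in cytarabine 2 and 4.12 in cytarabine 3, whereas controls 1, 2 and 3 held 2.89, 2.53 and 1.99 FPKM. In the sentences on other genes the values follow the same order. Every treated library was above every control, and cytarabine 3 was 1.42 times the highest control. The mean was 14.3 ± 9.51 FPKM (SD, n = 3) with cytarabine and 2.47 ± 0.45 FPKM (SD, n = 3) in controls, a log2 difference of 1.88 (standard error 0.57).
Tgtp1, which encodes the vacuole-binding Irgb6, was at 8.83, 5.16 and 1.12 FPKM with cytarabine, against 0.672, 0.742 and 1.26 FPKM in controls. Cytarabine 3 fell inside the control range. Its neighbour Tgtp2 was at 6.18, 2.97 and 0.914 FPKM against 0.59, 1.11 and 0.762 FPKM. Again 2 of the 3 treated libraries were above all controls and cytarabine 3 was among them. Since reads of this pair can be exchanged, their sum was also taken, a choice made after the values were seen. It was 15.0, 8.12 and 2.03 FPKM with cytarabine and 1.26, 1.85 and 2.02 FPKM in controls, so cytarabine 3 was at the level of control 3. The log2 difference of the sum was 1.50, against 1.43 (standard error 0.57) for Tgtp1 and 1.07 (standard error 0.50) for Tgtp2 alone. At the inferred depth the lowest values of Tgtp1 and Tgtp2 correspond to about 24 and 22 reads, the fewest of all members.

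Among the regulatory IRGs, Irgm1, which protects host membranes and takes part in mitochondrial turnover and autophagy, was at 41.6, 28.95 and 14.5 FPKM with cytarabine, against 11.6, 12.6 and 12.2 FPKM in controls. The controls were close together (12.2 ± 0.52 FPKM, SD, n = 3) and the treated libraries were not (28.4 ± 13.5 FPKM, SD, n = 3). The log2 difference was 1.04 (standard error 0.36).
Igtp, which encodes Irgm3, a GTPase of the endoplasmic reticulum and lipid droplets, was at 37.95, 25.1 and 12.2 FPKM against 9.79, 7.395 and 9.05 FPKM. Cytarabine 3 was 1.25 times the highest control and the log2 difference was 1.30 (standard error 0.39).
Irgm2, which resides at the Golgi, was at 10.1, 6.45 and 5.23 FPKM against 3.49, 2.55 and 2.93 FPKM. It was the member in which cytarabine 3 stood farthest above the controls, at 1.50 times the highest control and 1.75 times their mean. The log2 difference was 1.01 (standard error 0.24). The Igtp and Irgm2 annotations overlap on 1 strand, and the part of this in their values was not tested.

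Gbp2, a guanylate-binding protein recruited to bacteria and vacuoles, had the highest level of the members in every library. It was at 68.6, 46.1 and 22.0 FPKM with cytarabine, against 17.0, 19.2 and 19.2 FPKM in controls. All treated libraries were above all controls, cytarabine 3 by a factor of 1.14 over the highest. The log2 difference was 1.12 (standard error 0.39).
The other GBP genes of chromosome 3 differed less. Gbp3 was at 12.04, 9.16 and 6.90 FPKM against 4.75, 5.92 and 5.37 FPKM, without overlap, a log2 difference of 0.68 (standard error 0.20). Gbp7, which has been linked to NADPH oxidase assembly, was at 21.9, 14.5 and 11.2 FPKM against 9.32, 12.2 and 10.7 FPKM. Here cytarabine 3 was below control 2, and the log2 difference of 0.48 (standard error 0.24) was the smallest of the members.
Gbp6, of the chromosome 5 cluster, was at 8.14, 5.14 and 2.195 FPKM against 1.91, 2.13 and 2.00 FPKM. Cytarabine 3 exceeded the highest control by a factor of 1.03 only, and the log2 difference was 0.91 (standard error 0.38). The annotation of Gbp6 overlaps that of the coding gene Gm43302 on the same strand, and the part of this in its values was not tested.

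FPKM is per length, so levels can be set in order between genes. In controls the order of the means was Gbp2 (18.5 FPKM), Irgm1 (12.2 FPKM), Gbp7 (10.7 FPKM), Igtp (8.74 FPKM), Gbp3 (5.34 FPKM), Irgm2 (2.99 FPKM), Iigp1 (2.47 FPKM), Gbp6 (2.01 FPKM), Tgtp1 (0.892 FPKM) and Tgtp2 (0.821 FPKM). The control libraries of neighbours did not overlap between Gbp2 and Irgm1, Igtp and Gbp3, Gbp3 and Irgm2, or Gbp6 and Tgtp1. The ranges of the remaining neighbours overlapped, but within a library Irgm1 was above Gbp7 and Irgm2 above Iigp1 in 3 of 3 controls. The order of Gbp7 and Igtp, of Iigp1 and Gbp6, and of Tgtp1 and Tgtp2 held in 2 of 3. With cytarabine, Igtp and Gbp3 were the neighbours of this order whose libraries stayed apart, and all others overlapped.
The spread within the groups was unequal. The SD of log2(FPKM + 1) within cytarabine ranged from 0.36 for Gbp3 to 1.17 for Iigp1, with a median of 0.78, and within controls from 0.05 for Gbp6 to 0.24 for Tgtp1, with a median of 0.17. It was larger within cytarabine for 10 of 10 members, which held for 63.1% of all fitted genes, whose median SDs were 0.16 and 0.12. The mean log2(FPKM + 1) over the members was 4.24, 3.67 and 2.75 in cytarabine 1, 2 and 3 and 2.42, 2.49 and 2.47 in control 1, 2 and 3. Over the 6 libraries, the Pearson correlation between 2 members ranged from 0.83 for Irgm2 and Gbp7 to 1.00 for Irgm1 and Gbp2, with a median of 0.97. These are descriptions over 6 points that share their libraries.

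The genes whose log2(FPKM + 1) over the 6 libraries was most like the mean of the standardised members, among 11537 genes outside every list used here, were Mlf1ip (r = 0.99), 9930104L06Rik (r = 0.99), Hdac6 (r = 0.98), Polr2k (r = 0.98) and Kir3dl1 (r = 0.98). A correlation of at least 0.95 was found for 22 genes, or 0.191%. Mlf1ip, a centromere protein gene, was at 4.78, 4.33 and 3.53 FPKM with cytarabine and 3.03, 3.27 and 3.25 FPKM in controls. Kir3dl1, an NK cell receptor gene, was at 3.27, 2.50 and 1.77 FPKM against 1.71, 1.73 and 1.47 FPKM. Among genes of the interferon lists, the correlation was 0.99 for the IRG relative Gm12185, 0.98 for Irf1 and 0.97 for Socs1. Gm12185 overlaps Tgtp1 on the same strand, so reads of these genes may be shared. The correlation ranged from -0.76 (Wars) to 0.97 (Psmb9) over the 14 fitted interferon gamma targets and from -0.40 (Oasl2) to 0.87 (Parp14) over the 17 fitted type I targets.

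The libraries with more and with less colon transcript were then compared separately. Within those with less, cytarabine 1 against control 2 and 3, the median log2 difference of the members was 1.72, beside 0.007 over all fitted genes. Within those with more, cytarabine 2 and 3 against control 1, it was 0.78, beside 0.006. The members were chosen on the contrast of the groups, so this is a description only. A single library stood on 1 side of each of these comparisons. With scores for colon and heart transcripts as covariates, 10 members remained higher, and the median was 0.69. This fit estimates the group and both scores from only 6 libraries, so its values are uncertain. The heart score was also unequal between the groups (0.594, 1.02 and 5.13 with cytarabine, 6.81, 4.86 and 2.13 in controls). In that fit the log2 difference of Iigp1 was 0.96, that of Tgtp1 0.58 and that of Igtp 0.61, while Gbp3 (0.73) and Gbp7 (0.65) were slightly above their values over all libraries without covariates. Without cytarabine 1 the median was 0.74 and without cytarabine 3 it was 1.50, and in Iigp1 those values were 1.43 and 2.54. Leaving out cytarabine 1 moved Gbp7 to 0.23, Tgtp2 to 0.61, Gbp6 to 0.56 and Tgtp1 to 0.95. All 10 members kept a higher mean with cytarabine when any of the 6 libraries was left out. For the 7 members whose groups did not overlap, leaving out a library could not change this, so nothing is read from it.

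**Figure D3:**
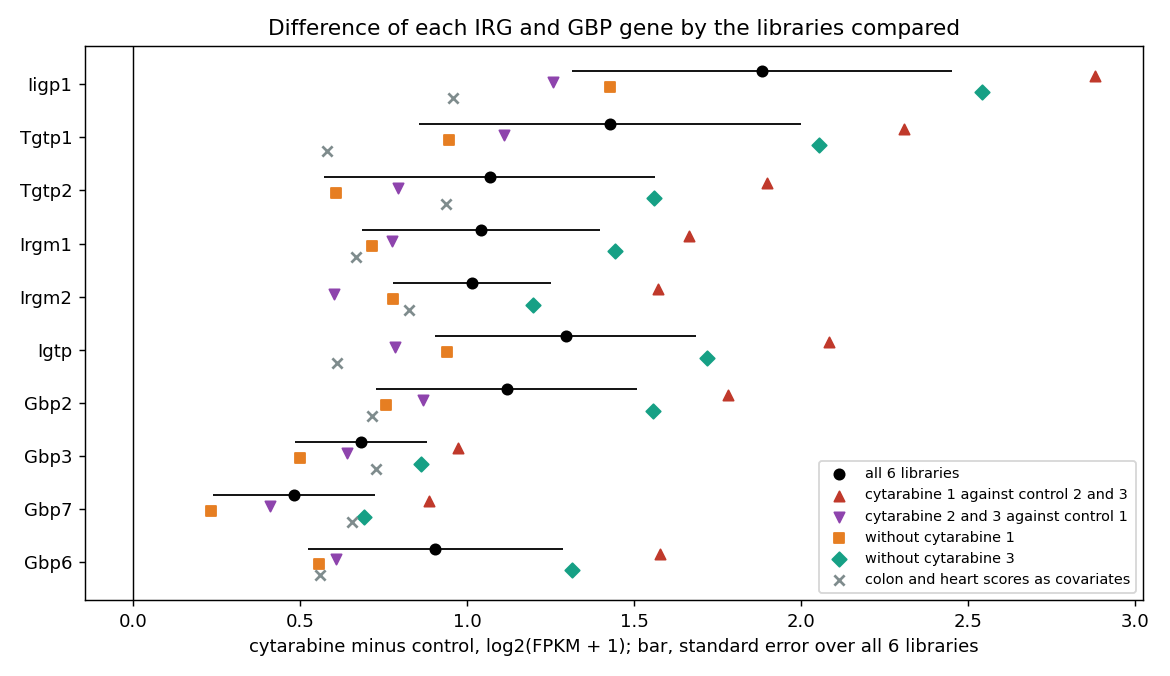
Difference between cytarabine and control in log2(FPKM + 1) (x axis) for each of the 10 members (y axis), by the libraries compared; black bars are the standard errors over all 6 libraries. All points lie above 0, farthest to the right for cytarabine 1 against control 2 and 3 (Iigp1, 2.88). For members whose groups do not overlap, leaving out libraries could not change that sign.

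Markers of several cell types were set beside the members. The myeloid list was set for C1498 itself, and T cell genes were high in every library (Lck at 75.5 FPKM or more, Zap70 at 66.4 FPKM or more). Which of these transcripts come from the sorted C1498 cells and which from other cells was not tested. Over 9 macrophage markers the summed level was 17.3, 64.6 and 55.3 FPKM with cytarabine and 36.5, 160.8 and 14.9 FPKM in controls, so cytarabine 1, the library with the highest IRG and GBP levels, was below 2 of the 3 controls. Marco was under 1 FPKM in every library. Vcam1 of this list was higher with cytarabine without overlap (2.46, 2.41 and 2.36 against 0.986, 2.09 and 0.677 FPKM), and the groups of its other fitted genes overlapped. Over 5 dendritic cell markers the range was 22.1 to 68.4 FPKM with cytarabine and 10.5 to 45.5 FPKM in controls, with Flt3 and Siglech under 1 FPKM throughout. Over 4 B cell markers it was 3.69 to 10.6 and 4.60 to 5.06 FPKM, and over 4 endothelial markers 21.3 to 27.7 and 17.7 to 27.7 FPKM. The 10 T cell markers summed to 736.7 to 976.8 FPKM with cytarabine and 859.7 to 1042 FPKM in controls, with Cd4, Cd5, Cd8a, Cd8b1 and Cd247 under 1 FPKM. Most of that sum was Cd3g, and Cd3d was higher with cytarabine without overlap (7.66, 9.99 and 7.71 against 3.61, 4.44 and 4.47 FPKM).
Of the remaining lists, the NK cell sum was higher with cytarabine, and the myeloid and erythroid sums stood out in cytarabine 1 alone. The neutrophil and heart sums did not rise with cytarabine. The 6 NK cell markers summed to 152, 124 and 123 FPKM with cytarabine and 97.8, 95.0 and 89.8 FPKM in controls, without overlap, mostly through Klrd1, while Ncr1, Eomes and Tbx21 were under 1 FPKM in every library. Gzma of that list was at 7.49, 3.85 and 2.56 FPKM against 1.04, 1.56 and 1.03 FPKM. The 11 myeloid markers summed to 263 FPKM in cytarabine 1, 28.5 and 27.9 FPKM in cytarabine 2 and 3 and 41.8 to 58.5 FPKM in controls. That sum was carried by the granule genes Mpo, Elane, Prtn3 and Ctsg, whereas Cd34 and Csf1r were lowest in cytarabine 1 (0.41 and 0.912 FPKM). Kit (0.813, 1.52 and 1.59 against 0.719, 0.243 and 0.436 FPKM) was higher with cytarabine without overlap. So was Cebpa (1.126, 1.82 and 2.18 against 1.122, 1.124 and 0.462 FPKM), and both were highest in cytarabine 3. Itgam and Csf3r were lower with cytarabine without overlap. The 4 erythroid markers were highest in cytarabine 1, at 306 FPKM against 36.6 to 70.3 FPKM elsewhere. The 8 neutrophil markers summed to 1433, 199 and 189 FPKM with cytarabine and 1438 to 2043 FPKM in controls. The 9 heart markers ranged from 5.72 to 801 FPKM with cytarabine and from 59.4 to 3058 FPKM in controls. No marker list was at 0 in any library, and the part of any cell type in the IRG and GBP levels was not tested.

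**Figure D4:**
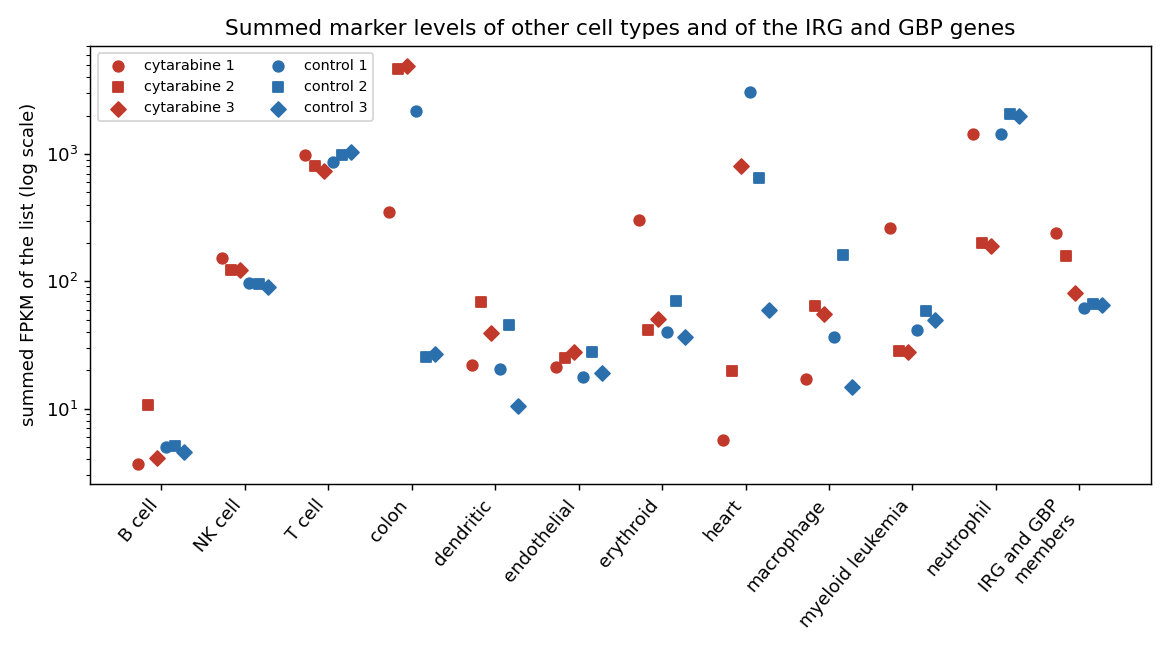
Summed FPKM (y axis, log scale) of each marker list and of the 10 members (x axis) in the 6 libraries; red symbols are cytarabine, blue control, and the shape gives the library number. The members are highest in cytarabine 1, where the macrophage markers stand at 17.3 FPKM and the summed myeloid and erythroid markers are at their highest.

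Other genes of the family were tested with limma over all 11703 genes, in which no gene had an adjusted p under 0.05. Of all fitted genes, 2038 (17.4%) had an unadjusted p under 0.05, 890 of them higher with cytarabine (7.6%) and 1148 lower (9.81%). Of 24 further IRG, GBP and related large GTPase genes in the files, 13 passed the filter. The IRG gene Ifi47 is not among them and is counted with the interferon gamma targets below. At an unadjusted p under 0.05, 3 of the 13 were higher, all of them GBP genes, and 0 were lower, and the median log2 difference of the 13 was 0.55.
Gbp4, a neighbour of Gbp6 on chromosome 5, was at 62.3, 46.3 and 36.6 FPKM with cytarabine, against 19.6, 25.7 and 25.6 FPKM in controls. All treated libraries were well above the controls (log2 difference 0.98, standard error 0.21, unadjusted p = 0.0039, adjusted p = 0.153 from limma). Gbp5, which promotes NLRP3 inflammasome assembly, was at 4.00, 2.02 and 1.56 FPKM against 0.87, 0.857 and 0.953 FPKM (log2 difference 0.84, standard error 0.30, unadjusted p = 0.0317, adjusted p = 0.246 from limma). Gbp9 was at 20.1, 14.3 and 12.4 FPKM against 8.16, 11.3 and 11.5 FPKM (log2 difference 0.54, standard error 0.21, unadjusted p = 0.044, adjusted p = 0.277 from limma). The calls of Gbp5 and Gbp9 were lost when any of 5 single libraries was left out, all but cytarabine 3, and with the replicate number as a block, and that of Gbp4 was kept in these fits. Without cytarabine 2, or without any 1 of the controls, 1 of the 13 was called, where these fits called 1176 to 2132 of all genes.
The other 10 did not pass. Gm12250, which encodes the effector Irgb10, was at 5.88, 3.50 and 0.837 FPKM against 0.953, 0.967 and 0.97 FPKM, so cytarabine 3 was below every control (log2 difference 0.97, standard error 0.49, adjusted p = 0.351 from limma). Gm12185 had a log2 difference of 0.96 without overlap of the groups, Gm4841 of 0.75, 9930111J21Rik1 of 0.55, Gbp8 of 0.35 and the antiviral GTPase gene Mx1 of 0.54. Without cytarabine 3, the lowest treated library for these 4 genes, Gm12250, Gm12185, Gm4841 and 9930111J21Rik1 also had an unadjusted p under 0.05. In that fit 7 of the 13 were called higher, and 1254 of all genes were called in either direction, against 2038 with every library. Gbp1 was high in the libraries with more colon transcript, with 0.233, 3.24 and 6.28 FPKM with cytarabine and 3.00, 1.23 and 0.0993 FPKM in controls. Irgq, Atl2 and Atl3, relatives outside the interferon-inducible set, had log2 differences of -0.11, 0.08 and 0.06. Gm5431, Gm4951, F830016B08Rik, Irgc1, Gbp10, Gbp11, Gvin1, Gm4070, Mx2 and Atl1 had a mean under 1 FPKM, and 9930111J21Rik2 was listed at 0 in every library.

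Of 72 genes of the interferon pathway, 56 passed the filter, of which 17 were higher and 1 lower at an unadjusted p under 0.05, beside 7.6% and 9.81% of all genes, and the median log2 difference of the 56 was 0.29. The 7 ligand genes, among them Ifng and Ifnb1, were listed at 0 in all 6 libraries. Of the receptor chains, Il10rb was higher (log2 difference 0.30, adjusted p = 0.229 from limma), and Ifngr1, Ifngr2, Ifnar1 and Ifnar2 had log2 differences of 0.66, 0.21, 0.11 and 0.20 and did not pass.
The kinase genes Jak1 and Jak2 were higher without overlap. Jak1 was at 95.9, 95.5 and 96.8 FPKM against 78.8, 80.2 and 81.6 FPKM, an even difference over the mice (log2 difference 0.26, standard error 0.05, unadjusted p = 0.0019, adjusted p = 0.137 from limma). Jak2 had a log2 difference of 0.30 (adjusted p = 0.182) and Tyk2 of -0.16 (adjusted p = 0.39 from limma).
Of the transcription factors that drive IRG and GBP genes, Irf1 was at 99.1, 82.1 and 64.5 FPKM against 51.4, 49.5 and 49.2 FPKM. It was higher in 3 of 3 treated libraries (log2 difference 0.68, standard error 0.15, unadjusted p = 0.0049, adjusted p = 0.161 from limma). With the colon and heart scores as covariates, Irf1 (0.52), Jak1 (0.28) and Il10rb (0.25) no longer had an unadjusted p under 0.05, and Jak2 (0.52) still had. Stat2, Irf8 and Irf9 had log2 differences of 0.20, 0.27 and -0.06.

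Among 14 fitted genes listed as targets of interferon gamma, 6 were higher and 1 was lower (of all genes, 7.6% and 9.81%). In 12 of the 14 cytarabine 1 was the highest treated library and cytarabine 3 the lowest, with cytarabine 2 between them. Ifi47, which is itself an IRG gene, is counted in this list and had that arrangement (20.6, 10.8 and 4.22 against 3.63, 5.76 and 6.02 FPKM). Among 17 fitted targets of type I interferon, 5 were higher and 0 lower, and that arrangement held in 4. Of these 17, 7 had their highest value in cytarabine 1, 2 in cytarabine 2 and 8 in cytarabine 3. The arrangement held in 23.7% of all genes. Whether the lists differ in this was not tested, and some genes of each respond to both kinds of interferon.
The 4 higher genes of the pathway with the smallest p were Parp14, Ubd, Jak1 and Cd274. Parp14, an ADP-ribosyltransferase gene, was at 8.26, 7.35 and 6.86 FPKM against 3.48, 3.55 and 3.80 FPKM (log2 difference 0.88, standard error 0.10, unadjusted p = 1.68e-04, adjusted p = 0.131 from limma). Ubd, the gene of the ubiquitin-like protein FAT10, was nearly equal in the treated libraries, at 2.295, 2.38 and 2.35 FPKM against 0.288, 0.22 and 0.237 FPKM (log2 difference 1.42, standard error 0.22, unadjusted p = 7.35e-04, adjusted p = 0.135 from limma). Cd274, which encodes PD-L1, was at 25.2, 17.8 and 14.8 FPKM against 9.25, 10.5 and 9.30 FPKM (log2 difference 0.89, standard error 0.19, adjusted p = 0.151 from limma). In these genes cytarabine 3 was above all controls, as in 7 of the 10 members. They were chosen by their small p, so nothing is read from this.
The lower gene was Wars, a tRNA synthetase gene (log2 difference -0.22, adjusted p = 0.262 from limma). Socs1, Cxcl10, Isg15, Ifit1 and Irf7 are named after their values were seen. The feedback inhibitor gene Socs1 was at 20.2, 14.4 and 8.92 FPKM against 6.02, 5.01 and 5.64 FPKM (log2 difference 1.18, standard error 0.28, adjusted p = 0.166 from limma). The chemokine gene Cxcl10 was at 9.89, 4.72 and 1.50 FPKM against 0.549, 1.62 and 0.194 FPKM (log2 difference 1.67, standard error 0.60, adjusted p = 0.247 from limma). The type I targets Isg15, Ifit1 and Irf7 were highest in cytarabine 3, at 13.6, 3.50 and 16.9 FPKM, and had log2 differences of 0.30, 0.20 and 0.48 with overlapping groups. With the colon and heart scores as covariates these values were 1.86, 1.29 and 0.55, and those of Isg15 and Ifit1 then had an unadjusted p under 0.05. In the same fit Socs1 (0.77) and Cxcl10 (1.90) no longer had it, while Parp14, Ubd and Cd274 did. That fit estimates the group and both scores from 6 libraries, so its values are uncertain. Cxcl10 also lost its call after quantile normalization and without cytarabine 1, cytarabine 2, control 1 or control 3.

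**Figure D5:**
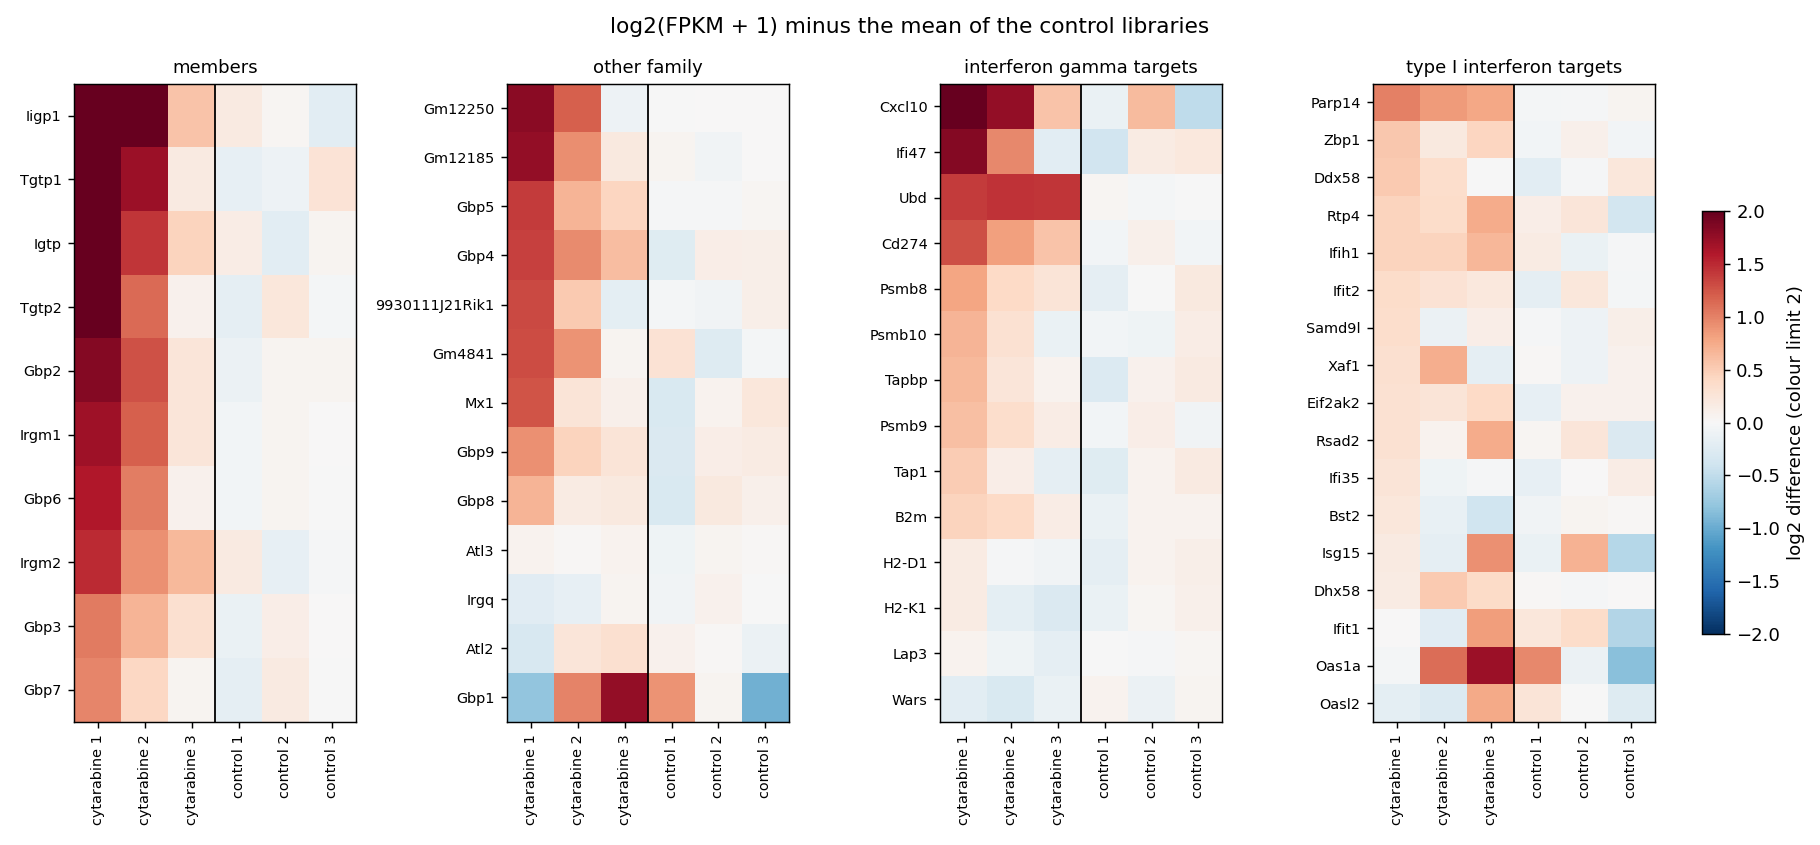
log2(FPKM + 1) minus the mean of the controls (colour, limited at 2 in either direction) for the members, the other fitted family genes, and fitted targets of interferon gamma and of type I interferon (rows) in the 6 libraries (columns). The members and most interferon gamma targets are strongest in cytarabine 1 and weakest of the treated libraries in cytarabine 3, while of the 17 type I targets 7 are strongest in cytarabine 1 and 8, Isg15 and Ifit1 among them, in cytarabine 3.

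Genes of proteins that work with IRGs and GBPs were also tested. Of 24, 23 passed the filter, 6 were higher and 1 lower at an unadjusted p under 0.05, beside 7.6% and 9.81% of all genes, and the median log2 difference was 0.16. Pycard, the inflammasome adaptor ASC, was higher by 0.28 (standard error 0.08, adjusted p = 0.184 from limma), Sqstm1, the autophagy receptor p62, by 0.40 (standard error 0.13, adjusted p = 0.216), Atg12, which is conjugated to ATG5, by 0.33 (standard error 0.12, adjusted p = 0.239), and Gabarapl2, an ATG8 protein that helps direct IRGs and GBPs to vacuoles, by 0.25 (standard error 0.09, adjusted p = 0.241). Icmt, which methylates prenylated proteins, was lower (log2 difference -0.20, standard error 0.08, adjusted p = 0.285 from limma). With the colon and heart scores as covariates, 0 of the 23 passed, although the log2 differences of Pycard (0.30), Sqstm1 (0.47), Atg12 (0.39) and Gabarapl2 (0.22) stayed near those above. Leaving out a library gave 1 (cytarabine 2 or control 3) to 11 (cytarabine 1) calls. These fits called 1287, 1176 and 4111 of all genes.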

How the data were processed

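RNA of 6 libraries, 1 per mouse, was analysed. Per the labels and the study's methods, the authors mapped single-end reads to mm10 with TopHat2 2.0.13, Bowtie2 2.2.3 and SAMtools 0.1.19, and used Cufflinks 2.2.1 for the deposited gene FPKM values. The annotation and Cufflinks options are not given in the sources used here. Length and library size were thus already divided out, and reads shared by near-identical genes were assigned by Cufflinks. Groups and replicate numbers came from the sample records, which do not say that mice of the same number belong together.

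A filter kept genes averaging 1 FPKM or more. Their log2(FPKM + 1) values were compared by two-sided tests of limma 3.58.1 (R 4.3.3; linear model, moderated with a trend on the mean), and p-values were adjusted over all fitted genes after Benjamini and Hochberg. The step was tested on simulated data. Unadjusted p under 0.05 was used to count genes. The members and lists were chosen with earlier results of these data known. Named are all members, the fitted family genes, the receptors, kinases and main transcription factors, and up to 4 genes per direction with the smallest p in the pathway and partner lists. Depth was inferred from 3607 genes with 1 transcript in GENCODE M21, assuming a fragment length of 200 bases, and 71.2% to 75.4% of the low values lay within 0.1 of a whole read. Older symbols were matched through RefSeq synonyms. Coding sequences came from GENCODE transcripts. Plots used matplotlib 3.10.9 (Python 3.11.15). Alternatives were another pseudocount, filter, scaling or variance model, a block, tissue covariates and leaving out each library. Protein sequences were not analysed here, and 1 transcription factor gene of the pathway list is not reported here. A test on counts was not run, since the values are FPKM.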

Additional observations from a re-analysis of the deposited data

How the results depend on the processing

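Over all genes, 2038 had an unadjusted p under 0.05, 594 with the colon and heart scores as covariates and, with a library left out, 1176 (control 3) to 4111 (cytarabine 1). The adjusted count was 0, but 1 with a pseudocount of 0.1, 2 without the variance trend, 1 with a robust trend and 0 to 6 with a library left out. The members' median log2 difference (1.06) was 1.72 among the libraries with less colon transcript and 0.74 to 1.50 with a library left out. With Tgtp1 and Tgtp2 summed, an alternative chosen after seeing the data, the median was 1.04. The family count (3) was 6 with no filter, 1 after quantile normalization and 1 to 7 with a library left out. The pathway count (18) was 11 with the covariates and 12 to 20 with a library left out. The partner count (7) was 4 without the variance trend, 0 with the covariates and 1 to 11 with a library left out. With the covariates, the log2 difference turned for Irgq (0.11), Atl2 (-0.036), Ifnar1 (-0.059) and Irf9 (0.22), and for Ifit1 after quantile normalization (-0.069). With a library left out it ranged from -0.039 to 0.28 for Atl2, from -0.22 to 0.047 for Irf9, from -0.005 to 0.65 for Isg15 and from -0.11 to 0.42 for Ifit1. With the covariates Isg15 (1.86) and Ifit1 (1.29) were larger and had an unadjusted p under 0.05, in a fit that estimates the group and both scores from few libraries. The causes were not tested.

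Libraries of the same number did not deviate from their group means together (r = -0.71, -0.25 and -0.59), and 0 of 6 correlated best with its own number. With 3 libraries per group, this check over all genes cannot settle whether the numbers pair mice, and the sample records do not say. In a fit blocked on the replicate number, 994 genes, 1 family gene, 11 pathway genes and 3 partner genes had an unadjusted p under 0.05.

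With 3 mice per group, standard errors of the members reached 0.57, and the depth is inferred, not given. Tgtp1 and Tgtp2 rest on the fewest reads, about 22 to 301 per library, and share most of their sequence. Leaving out a library leaves 2 mice in a group, and each comparison among libraries of like colon transcript has a single library on 1 side. The cells were sorted on GFP and CD49b, and the shares of other cells in the sort were not measured apart from their transcripts.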
